A study of Mus musculus with 2 samples.

Results

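The nuclear genes of the mitochondrial respiratory chain and the ATP synthase were examined in mouse cerebral cortex. Members were the genes whose symbol starts with Nduf, Sdh, Uqcr, Atp5 or Cyc1, or with Cox followed by a digit, together with Cycs. Only probe sets, the groups of oligonucleotides that report 1 transcript on the array, paired with exactly 1 symbol were used. This rule used no measured value, but it was chosen with earlier results of these data known. It gave 80 genes on 109 probe sets, of 8251 genes on 10829 probe sets in all. Their gene IDs all matched a RefSeq gene table of GRCm38.p6, used for names.

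Total RNA was hybridised to 2 arrays. The first array is labelled as the control, and the second as PS cDKO, a conditional double knockout of the presenilins. The age was 6 months in both groups. The labels name no strain, sex, allele or Cre driver, and do not say whether an array held RNA of 1 animal or of a pool. Presenilins form the active site of the membrane protease γ-secretase. With 1 array per genotype there is no replicate check, so every difference below compares these arrays, carries no error and has no p-value.

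The respiratory chain is a series of protein complexes in the inner mitochondrial membrane that pass electrons from NADH and succinate to oxygen and pump protons. Complex I oxidises NADH, complex II oxidises succinate, complex III passes electrons to cytochrome c and complex IV reduces oxygen. The ATP synthase uses the proton gradient to make ATP. Neurons depend heavily on this route for ion pumping and synaptic transmission, and most subunits are encoded in the nucleus and imported.

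Intensities are given as deposited. A log2 ratio is PS cDKO over control after the PS cDKO array had been scaled by 1.02, which set the typical bright probe set to no difference. A floor at a signal of 232, the 40th percentile of both arrays, separated measured probe sets from dim ones. A gene's ratio is the mean log2 ratio over those of its probe sets that both arrays measured above that floor. Psen2, a presenilin gene, lay below the floor with 105 in control and 94.9 in PS cDKO cortex, so that it gave no check of the genotype. The deposited medians were 300 and 305. Over all 5414 measured genes, log2 ratios had a robust SD of 0.23. Among 749 pairs of probe sets for the same gene, the SD of a probe set was 0.21. A gene is said below to pass the fold limit where its log2 ratio is at least 0.32 in size, which for 1 gene alone is not far outside that spread. The limit, too, was chosen with earlier results known.

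Most genes of the chain were lower in the PS cDKO, in complexes I and III above all, whereas complex IV was split. Of the 80 genes, 68 were measured on both arrays, 2 were at the floor on 1 array and have only a bound, and 10 were at the floor on both. Among the 68, 54 were lower and 14 higher, against 49.2% lower and 50.8% higher among all genes. Past the fold limit, 31 of the 68 were lower, against 8.48% of all genes, and 4 were higher, against 7.5%. The median log2 ratio was -0.29, or 1.22-fold lower, and that of all genes was 0.0057. With no floor 58 of the 80 genes were lower, against 43.3% of all genes. Differences were small in size: 4 genes were at least 1.5-fold lower (0.757% of all genes) and 1 at least 1.5-fold higher (0.887%). At 2-fold there was no member in either direction, against 0.0554% of all genes lower and 0.0554% higher. The 4 were Atp5e, Ndufb8, Uqcr11 and Ndufs3, and the higher gene was Cox5a.

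**Figure D1:**
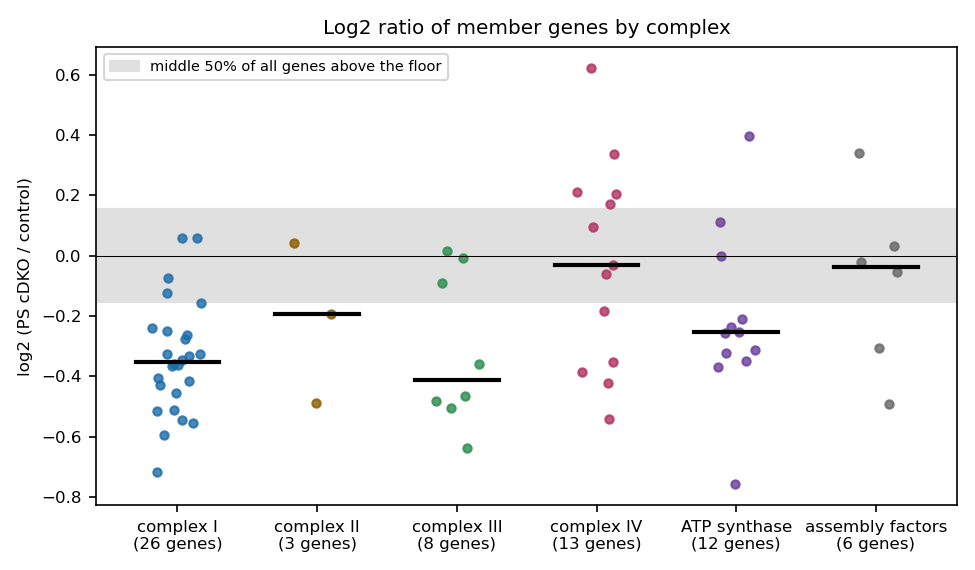
Log2 ratio of PS cDKO over control (vertical axis) for each gene measured on both arrays (points), by complex (horizontal axis), with the median as a bar. The grey band is the middle 50% of all genes. The medians are -0.35 for complex I and -0.41 for complex III, below the band, and -0.03 for complex IV, whose genes spread from -0.54 to 0.62.

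The promoters of the 4 lowest genes and of the highest are shown because these 5 genes are the extremes among members measured on both arrays. Sequences are from RefSeq, build GRCm38.p6, and run from 250 bases before to 50 after the gene's start. The Ndufb8 window is chr19:44555393-44555692, minus strand. The Ndufs3 window is chr2:90904672-90904971, minus strand. The Uqcr11 window is chr10:80406772-80407071, minus strand. The Atp5e window is chr2:174464052-174464351, minus strand. The Cox5a window is chr9:57520982-57521281, plus strand. Capitals mark matches to the motifs searched, on either strand.
Ndufb8: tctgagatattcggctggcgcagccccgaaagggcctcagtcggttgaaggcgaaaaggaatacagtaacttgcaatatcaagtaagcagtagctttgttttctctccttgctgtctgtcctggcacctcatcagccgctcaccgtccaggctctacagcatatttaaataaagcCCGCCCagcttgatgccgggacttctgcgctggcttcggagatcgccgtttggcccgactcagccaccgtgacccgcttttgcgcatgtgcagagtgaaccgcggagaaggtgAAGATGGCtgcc
Ndufs3: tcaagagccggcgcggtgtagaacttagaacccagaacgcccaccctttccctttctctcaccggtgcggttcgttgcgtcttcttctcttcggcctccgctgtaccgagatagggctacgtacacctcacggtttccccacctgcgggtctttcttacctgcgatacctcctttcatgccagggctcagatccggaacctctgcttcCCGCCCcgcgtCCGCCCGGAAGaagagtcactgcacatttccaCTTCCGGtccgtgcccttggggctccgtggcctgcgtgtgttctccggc
Uqcr11: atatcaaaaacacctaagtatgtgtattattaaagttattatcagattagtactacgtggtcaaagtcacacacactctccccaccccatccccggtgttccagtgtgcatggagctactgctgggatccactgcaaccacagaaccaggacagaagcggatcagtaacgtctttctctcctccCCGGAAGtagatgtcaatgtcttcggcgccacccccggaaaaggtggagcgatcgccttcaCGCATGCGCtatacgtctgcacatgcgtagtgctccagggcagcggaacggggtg
Atp5e: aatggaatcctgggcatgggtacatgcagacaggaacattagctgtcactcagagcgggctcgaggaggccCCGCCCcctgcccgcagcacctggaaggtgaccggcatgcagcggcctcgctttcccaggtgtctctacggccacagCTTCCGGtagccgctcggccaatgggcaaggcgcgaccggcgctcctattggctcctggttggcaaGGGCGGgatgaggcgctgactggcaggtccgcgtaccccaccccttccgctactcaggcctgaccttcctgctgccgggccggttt
Cox5a: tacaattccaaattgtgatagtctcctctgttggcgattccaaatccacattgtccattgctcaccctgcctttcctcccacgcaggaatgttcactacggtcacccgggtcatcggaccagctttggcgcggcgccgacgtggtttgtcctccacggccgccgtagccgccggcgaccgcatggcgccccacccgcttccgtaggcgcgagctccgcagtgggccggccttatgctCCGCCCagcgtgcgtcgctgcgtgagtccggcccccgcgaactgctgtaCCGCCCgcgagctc
The motifs were GCGCNTGCG for NRF1, CCGGAAG for ETS factors such as GABP, AAGATGGC for YY1, TCAAGGTCA for estrogen-related receptors, GGGCGG for the GC box and TATAAA for the TATA box. NRF1 and GABP are known as regulators of nuclear genes for mitochondria. The Ndufs3 window holds CCGGAAG from position -27 and its reverse complement CTTCCGG from position 2 relative to the start. Its first ETS match overlaps a GC box, CCGCCC on this strand. The Uqcr11 window holds an ETS match from -66 and an NRF1 match, CGCATGCGC on this strand, from -5, and the Atp5e window an ETS match from -102. In Ndufb8 the YY1 letters lie downstream of the start, from position 39. Only GC boxes were matched in the Cox5a window.

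A window was available for 64 of the 80 genes, and a gene counts where any of its windows holds a motif. The ETS letters were found in 21 of the 64 genes (32.8%), against 17.1% of 6572 array genes and 8.86% of all 32851 windows. For NRF1 the count was 20 (31.3%), against 13.3% of array genes and 6.31% of windows. The NRF1 letters had been shortened by 1 base after a longer form gave a lower count, so they were not fixed beforehand. YY1 letters stood in 9 (14.1%), against 4.61% and 2.75%. By ratio, the ETS letters stood in 9 of 28 genes that were lower past the fold limit and in 8 of 24 other measured genes, and the NRF1 letters in 9 and 5 of these. The GC box was found in 33 of the 64 (51.6%), against 63.1% of array genes and 35.7% of windows. TATA letters stood in 6 (9.38%, against 12.2% and 13.6%) and the estrogen-related receptor letters in 1 (1.56%, against 0.304% and 0.423%). A match is a stretch of letters and not a measured binding site.

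Complex I, the NADH dehydrogenase, was lower almost throughout. Of its 29 genes 26 were measured on both arrays. Of these, 24 were lower (49.2% of all genes), 17 of them past the fold limit (8.48%), and none was higher past it (7.5%). The median log2 ratio was -0.35, and the middle 50% of genes spanned 0.20 on the log2 scale, against 0.31 for all genes. In bulk cortex, fewer cells of a type and less RNA per cell cannot be told apart, here or in the complexes that follow.

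The accessory subunits of the Ndufb series, most of which lie in the distal membrane arm, had similar ratios. All 9 were measured and lower, 8 of them past the fold limit (49.2% and 8.48% of all genes). Their median log2 ratio was -0.37, with a middle 50% spanning 0.068. Ndufb8 was at an intensity of 1432 in control and 850 in PS cDKO cortex, 1.65-fold lower, and all pairs of intensities below are in this order. Counting itself, 16 of the 5414 genes were as low. Ndufb5 was at 1705 and 1214, 1.37-fold lower, and Ndufb7 at 1344 and 975, 1.35-fold lower. The other large members lay in a narrow range of ratios. Ndufb2 gave 1390 and 989 in 1 probe set and 2624 and 1975 in another, 1.37-fold and 1.30-fold lower. Ndufb10, Ndufb9, Ndufb11 and Ndufb6 were between 1.26-fold and 1.29-fold lower. Ndufb3 was the least different of the series, at 1752 and 1440, 1.19-fold lower.

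The core subunits, which carry the flavin and iron-sulphur clusters and are conserved from bacteria, differed among themselves. Ndufs3, a core subunit of the arm that reaches into the matrix, was at 734 and 475, 1.51-fold lower. Ndufv1, which binds NADH and the flavin FMN, was at 2239 and 1744, a log2 ratio of -0.33. Ndufv2, an iron-sulphur subunit, was 1.29-fold lower in its bright probe set (1674 and 1268) and 1.12-fold in a dim one (260 and 227). Ndufs1, the largest core subunit, was almost level between the arrays, at 1003 and 932, 1.05-fold lower.

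Of the Ndufa series 10 of 12 genes were measured on both arrays and 9 were lower (49.2% of all genes), with a median of -0.34. Ndufa13, also known as GRIM-19, was at 1175 and 787, 1.46-fold lower. Ndufa5 was at 1193 and 816, 1.43-fold lower. Ndufab1, the mitochondrial acyl carrier protein, was at 458 and 314, 1.42-fold lower. These were the lowest of the series with a ratio. Ndufa6 has only a bound, since it was under the floor on the PS cDKO array, at 408 and 211: at least 1.76-fold lower. Ndufa3, Ndufa7 and Ndufa8 had log2 ratios of -0.41, -0.35 and -0.32. Ndufc1, a small membrane arm subunit, was at 882 and 586, 1.47-fold lower. Smaller differences were seen in Ndufa2 (1.21-fold lower), Ndufv3 (1.18-fold), Ndufa9 (1.12-fold) and Ndufa1 (1.09-fold).

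Only Ndufa10 and Ndufs4 of complex I were higher among genes measured on both arrays, each by 1.04-fold. Ndufa10 was at 1101 and 1119, and Ndufs4, whose loss causes Leigh-like disease in mice, was near the floor at 283 and 288. Quantile normalization put Ndufs4 at a log2 ratio of -0.0053. Ndufa12 (208 and 196) and Ndufc2 (105 and 135) were under the floor on both arrays.

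**Figure D2:**
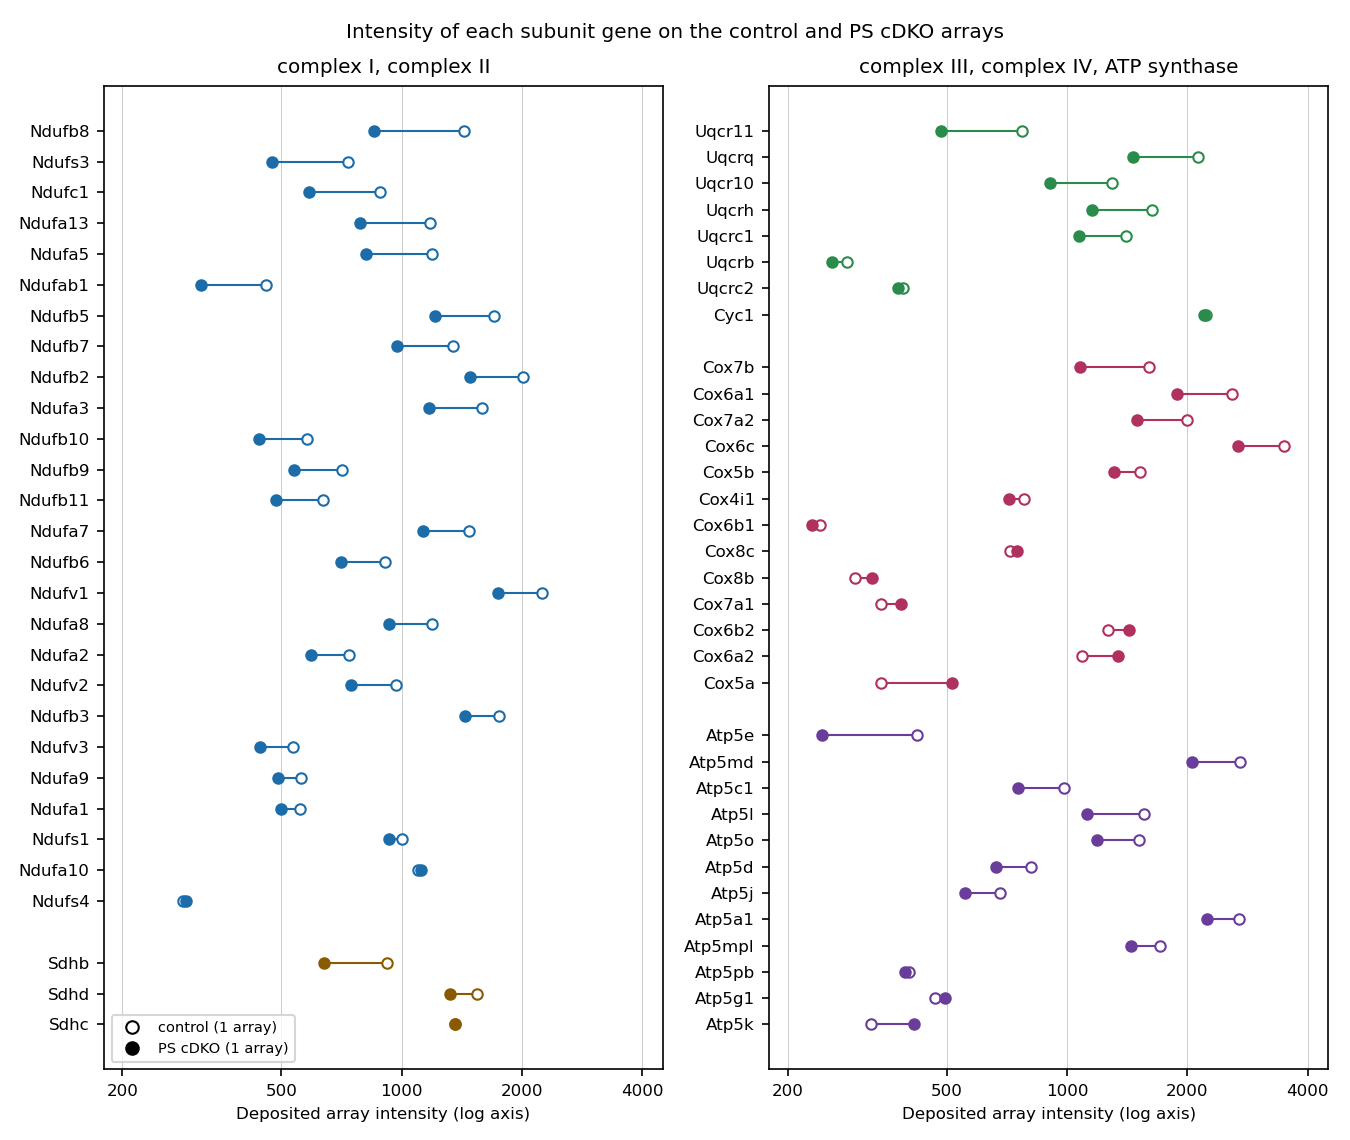
Deposited intensity (horizontal log axis) of each subunit gene measured on both arrays, averaged over those probe sets that pass the floor, with the control as an open and the PS cDKO as a filled circle; each row is a gene and each circle 1 array. In complex I the filled circle lies left of the open one in 24 of 26 rows; for Sdhc the circles coincide at 1356 and 1362.

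Complex II, the succinate dehydrogenase, has only 4 genes and they differed from each other. Sdhb, the iron-sulphur subunit, was at 919 and 639, 1.40-fold lower. Of the membrane anchors, Sdhd was at 1543 and 1318, 1.14-fold lower, whereas Sdhc was at 1356 and 1362, a ratio of 1.03-fold. The catalytic flavoprotein Sdha lay below the floor on both arrays (168 and 162), so that the complex had 3 measured genes and a median of -0.19.

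Complex III had the lowest median, -0.41, with 7 of 8 genes lower and 5 past the fold limit (49.2% and 8.48% of all genes). Its 4 lowest genes code for small subunits. Uqcr11 was at 773 and 485, 1.56-fold lower. Uqcrq was at 2125 and 1463, 1.42-fold lower, and Uqcr10 at 1299 and 909, 1.40-fold lower. Uqcrh, the hinge protein that helps dock cytochrome c, was at 1635 and 1156, 1.38-fold lower. The large core protein Uqcrc1 was also lower, at 1406 and 1070, 1.28-fold. A second set of genes hardly differed between the arrays. Uqcrc2, the other core protein, was at 389 and 378, and Uqcrb, a further small subunit, at 282 and 259, 1.01-fold and 1.07-fold lower. Cyc1, the haem-carrying cytochrome c1 and the brightest of the complex, had probe sets at 2430 and 2346 and at 2030 and 2048, with log2 ratios of -0.02 and 0.05. The soluble carrier Cycs, which takes electrons from complex III to complex IV, was below the floor with 144 and 103 and has no ratio.

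Complex IV, cytochrome c oxidase, was divided, with 7 genes lower and 6 higher among 13 measured and a median of -0.03. Its spread was the widest of the complexes, with an SD of 0.34 over genes, against 0.19 in complex I. The median changed sign with quantile normalization (0.016) and without suffixed probe sets (0.047), whose names mark probes shared with other transcripts or otherwise unusual, so that no direction is given for the complex as a whole.

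The lower genes were mainly bright ones for subunits found in most tissues. Cox7b was at 1603 and 1077, 1.45-fold lower. Cox6a1 was at 2593 and 1889, 1.34-fold lower, and Cox7a2 at 2001 and 1496, 1.31-fold lower. Cox6c, the brightest gene of the whole set, was at 3500 and 2680, 1.28-fold lower. With no floor, further Cox6c probe sets at 160 and 134 and at 79.5 and 118 enter its mean, and the log2 ratio becomes 0.010. Cox5b, a zinc-binding subunit, was at 1520 and 1309, 1.13-fold lower. Cox4i1, a regulatory subunit, was 1.09-fold lower in its bright probe set (1256 and 1130) and level in a dim one (309 and 301). Cox6b1, near the floor, was at 241 and 231.

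The opposite side of complex IV was formed by Cox5a and by isoforms known from muscle or testis. Cox5a, a matrix-side subunit and not a tissue isoform, was at 342 and 515, 1.54-fold higher, and 32 of the 5414 genes, itself included, were as high. A further Cox5a probe set was under the floor at 80.5 and 90.9, and with no floor the gene was 1.33-fold higher. The muscle isoforms were Cox6a2 at 1089 and 1343 (1.26-fold higher), Cox7a1 at 342 and 385 (1.15-fold) and Cox8b at 295 and 325 (1.13-fold). With no floor, a further Cox8b probe set at 36.1 and 30.6 enters its mean, and the log2 ratio becomes -0.018. The testis isoforms were Cox6b2, with probe sets at 1146 and 1435 and at 1394 and 1420, and Cox8c, with probe sets at 835 and 872 and at 603 and 629. Cox6b2 was 1.16-fold and Cox8c 1.07-fold higher. These Cox6b2 probe sets, the measured Cox8b probe set and the dimmer Cox8c probe set are suffixed and can share probes with other transcripts. Among the lower genes this holds for Cox6a1, Cox6c, Cox6b1 and the bright Cox4i1 probe set. This grouping was made after the values were seen: the median log2 ratio of the 5 isoforms, all higher, was 0.20, while 7 of the 8 other measured subunits were lower, with a median of -0.27. With no floor these medians were 0.16 and -0.06. A level cannot be compared between probe sets, so the array does not say how much of the complex each isoform could supply. Cox8a, the general counterpart of Cox8b and Cox8c, was below the floor at 84.6 and 172. Markers of striated muscle, the tissue of 3 of these isoforms, were mostly dim, with 11 of 18 at the floor on both arrays. Of the other 7, 6 were higher, with a median of 0.09 (0.17 over all the markers with no floor) and with Actn3 1.26-fold and Ckm 1.20-fold higher. The summed deposited intensity of the muscle list was 8992 on the control and 9467 on the PS cDKO array; its part in the isoforms' values was not tested.

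**Figure D3:**
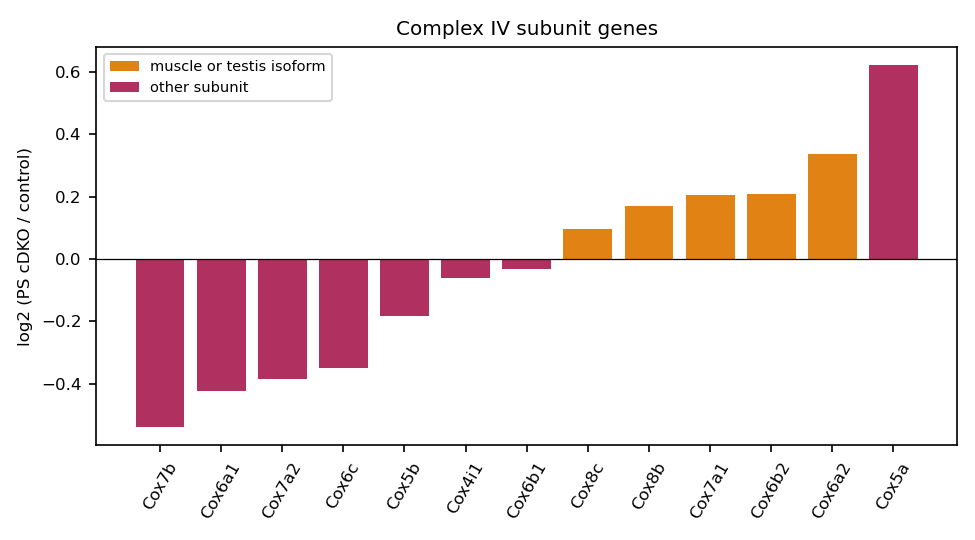
Log2 ratio of PS cDKO over control (vertical axis, bars from 0) of the 13 complex IV genes measured on both arrays, in order of the ratio. The 5 muscle or testis isoforms lie between 0.10 and 0.34, Cox5a is at 0.62, and the other 7 genes lie below 0.

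The ATP synthase was lower in 10 of 12 measured genes (49.2% of all genes), with a median log2 ratio of -0.25. Past the fold limit 3 of the 12 were lower, against 8.48% of all genes, and 1 was higher, against 7.5%. Atp5e, the small ε subunit of the rotor's central stalk, was at 422 and 244, 1.69-fold lower, the lowest of the genes measured on both arrays, and 11 of the 5414 genes, counting itself, were as low. Its PS cDKO value was just above the floor, and with a floor at the 60th percentile it gives no ratio on both arrays. Atp5e rested on 1 suffixed probe set, which can share probes with other transcripts. The γ subunit Atp5c1, the shaft of the rotor, had probe sets at 1030 and 801 and at 937 and 709, 1.26-fold and 1.29-fold lower. Among these soluble head subunits Atp5a1, the α subunit, differed less, at 2696 and 2236, 1.18-fold lower. The δ subunit Atp5d had 3 probe sets above the floor that disagreed: 1070 and 745, 638 and 465, and 725 and 780, or 1.40-fold lower, 1.34-fold lower and 1.10-fold higher. With a floor at the 20th percentile or none its mean log2 ratio was 0.019.

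The peripheral stalk and the membrane part of the ATP synthase were mixed. Atp5o, the stalk subunit named for oligomycin sensitivity, was at 1514 and 1191, 1.24-fold lower, and Atp5j, coupling factor 6, at 678 and 556, 1.19-fold lower. Atp5pb, the b subunit, was level at 403 and 394. Of the small membrane subunits, Atp5md was at 2712 and 2053, 1.29-fold lower, and Atp5mpl at 1706 and 1442, 1.16-fold lower. Atp5l, the g subunit, was at 2684 and 1870 in its bright probe set and at 431 and 378 in another, 1.40-fold and 1.11-fold lower, and its mean lay just short of the fold limit. Atp5k, the e subunit that sits beside it, differed in the other direction, at 323 and 415, 1.32-fold higher. The genes for the proton-carrying c ring were dim. Atp5g1 was at 469 and 495, 1.08-fold higher, and Atp5g2 had a bound of at least 1.30-fold higher in a suffixed probe set (187 and 294). A further Atp5g2 probe set, under the floor at 89.4 and 59.5, went the other way. With no floor Atp5g2 was 1.05-fold higher. Atp5j2 was under the floor at 46.2 and 43.0.

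The 10 genes of the rule that serve assembly or link complexes had no common direction. Of 6 measured, 4 were lower, with a median of -0.04, and the sign of the median depended on the floor, at 0.017 with the 20th percentile and 0.14 with none. Cox7a2l, which helps join complexes III and IV into supercomplexes, was at 920 and 639, 1.41-fold lower. Cox17, a copper chaperone for complex IV, was at 878 and 694, 1.24-fold lower. Sdhaf1, which helps insert iron-sulphur clusters into Sdhb, was at 1108 and 1370, 1.27-fold higher, opposite to Sdhb itself. Sdhaf1 and Sdhb each rested on 1 suffixed probe set, which can share probes with other transcripts. Cox14, Cox16 and Cox18 were within 1.04-fold of the control. Cox20, Ndufaf1, Ndufaf4 and Sdhaf2 were under the floor on both arrays.

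Bright genes in general were somewhat lower on the PS cDKO array, and many members are bright, so the comparison was repeated by signal. Of all genes with a mean signal of 1000 or more, 59.7% were lower and 14.1% lower past the fold limit, with a median log2 ratio of -0.06. Of the 30 members in that range 23 were lower and 17 lower past the limit, with a median of -0.34. Below 1000, 31 of 38 members were lower, with a median of -0.25, against 46.9% and 0.02 for all genes there. Past the limit 14 of the 38 were lower, against 318 of all 4415 genes there. After a lowess fit of ratio on signal, 54 of the 68 were still lower, against 49.6% of all genes, and the median was -0.26. Fewer members passed the fold limit after that fit, with 23 lower, down from 31. The share of all genes past the limit after the fit was not computed. Within the set the rank correlation of ratio with mean signal was -0.26 over 68 genes, against -0.14 over all 5414. These are descriptions across genes that share the same arrays.

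**Figure D4:**
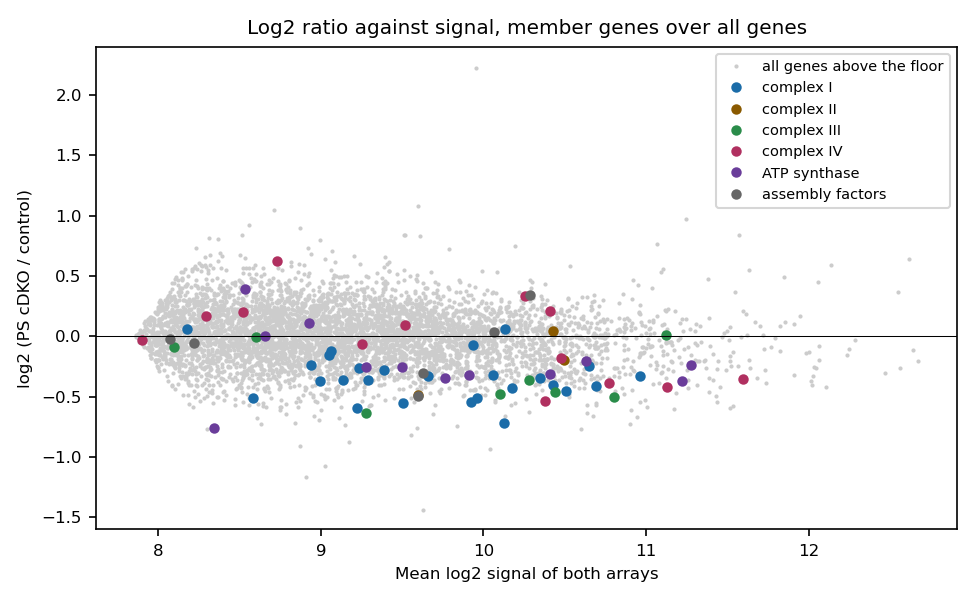
Log2 ratio of PS cDKO over control (vertical axis) against mean log2 signal of both arrays (horizontal axis) for all 5414 measured genes in grey and the 68 members in colour. Members lie mostly below 0 across the range of signal, with Cox5a at 0.62 and Atp5e at -0.76 as the extremes.

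Other mitochondrial genes were lower too, with smaller medians in most lists. Of further assembly and regulatory factors outside the rule, all 5 measured genes were lower, with a median of -0.29; Surf1, needed for complex IV assembly, was at 920 and 696, 1.29-fold lower, and Atpif1, the inhibitor of the ATP synthase, had a log2 ratio of -0.32. Genes of the citric acid cycle and pyruvate dehydrogenase were lower in 11 of 14, with a median of -0.18, among them the fumarase Fh1 by 1.47-fold. Carriers and porins of the membranes were lower in 11 of 14 (median -0.15, or -0.08 with no floor), with none past the fold limit. Mitochondrial ribosomal proteins were lower in 24 of 33 (median -0.14). Past the fold limit 3 of these were lower, a share near the 8.48% of all genes, and 1, Mrpl14, was higher. Import and chaperone genes were lower in 14 of 19, with a median of -0.07. Regulators of mitochondrial biogenesis were lower in 2 of 6 (median 0.09, or 0.04 with no floor) and 7 more were at the floor on both arrays. Gabpb1, a GABP subunit, was at 267 and 322, 1.23-fold higher, and Esrra, an estrogen-related receptor, was at 696 and 590, 1.15-fold lower. The vacuolar ATPase, a proton pump of acidic organelles and not of mitochondria, was lower in 10 of 15 genes. Its median was -0.16 (-0.04 with no floor). After the lowess fit, medians were -0.27 for the further factors, -0.14 for the citric acid cycle list, -0.11 for carriers and -0.16 for ribosomal proteins. Those of import, biogenesis and vacuolar ATPase genes were -0.07, 0.04 and -0.09. No probe set carried 1 symbol of a gene encoded in mitochondrial DNA.

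Markers of cell types differed as well. Excitatory cortical neuron markers were lower in 12 of 15 measured genes, with a median of -0.19, and their summed intensity was 28322 for the control and 22547 for the PS cDKO. Hpca, a neuronal calcium sensor, was at 3279 and 2267. The corresponding values for inhibitory neuron markers were 7 of 11, -0.20, 13905 and 11304, but with no floor 6 of 16 were lower and the median was 0.07. Microglia markers were higher in 14 of 16, with a median of 0.42 (0.25 with no floor) and sums of 11560 and 15190. Astrocyte markers were higher in 11 of 15, with a median of 0.18 and sums of 28590 and 33162; Gfap was at 458 and 2095. Oligodendrocyte markers were lower in 4 of 7 (median -0.13; sums 11865 and 10667), but with no floor in 4 of 10, with a median of 0.09. The summed intensity of the respiratory chain and ATP synthase probe sets was 92748 on the control and 76699 on the PS cDKO array. Over all genes it was 5.26e+06 and 5.10e+06. All these sums are of deposited, unscaled values and include dim probe sets. After the lowess fit, marker medians were -0.12 for excitatory neurons, -0.20 for inhibitory neurons, 0.42 for microglia, 0.20 for astrocytes and -0.16 for oligodendrocytes. The respiratory chain and ATP synthase genes were then at -0.26. No list had a marker at an intensity of 0. Dim genes lay under the floor on both arrays, 1 excitatory, 5 inhibitory, 3 microglial, 1 astrocyte and 3 oligodendrocyte. The part of these cell types in the lower values of respiratory chain genes was not tested.

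**Figure D5:**
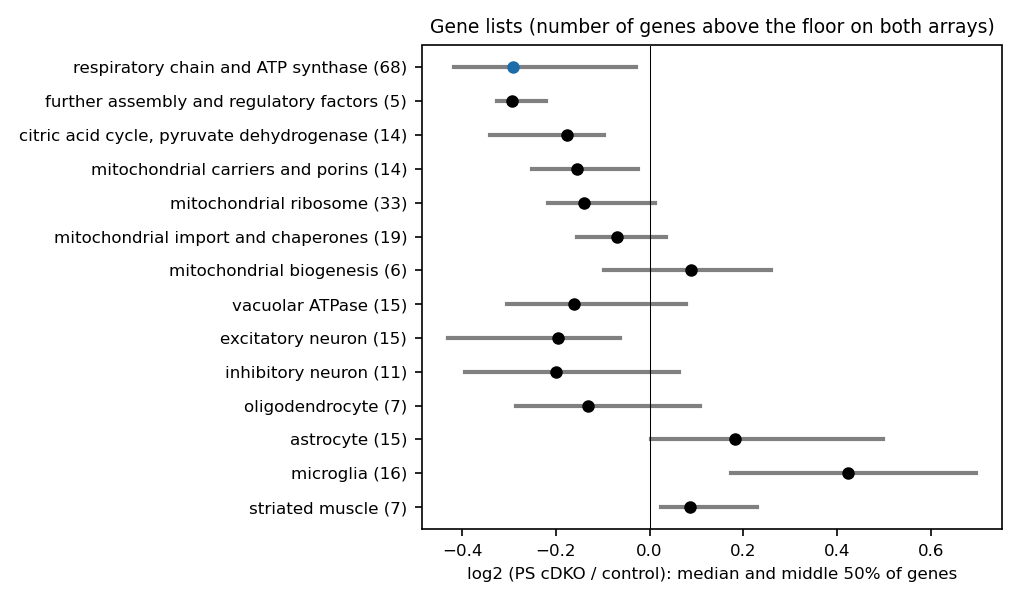
Median log2 ratio of PS cDKO over control (point) and middle 50% of genes (line) on the horizontal axis for the respiratory chain and ATP synthase and for other lists, with the number of genes measured on both arrays in brackets. The respiratory chain is at -0.29, excitatory neuron markers at -0.19, astrocyte markers at 0.18 and microglia markers at 0.42.

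Repeated probe sets were the only internal check. Of 78 member probe sets that passed the floor on each array, 61 were lower, against 49.3% of all such probe sets. Of the 9 genes with more than 1 of them, the probe sets of 7 had the same sign, the exceptions being Atp5d and Cyc1. The same share was not computed over all genes with repeated probe sets, so the 7 of 9 cannot be set against a background. Of the 109 member probe sets 39 carry a suffix, so that repeated probe sets can share sequence.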

How the data were processed

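Cortical RNA of 1 control and 1 PS cDKO array was analysed. The authors deposited 1 linear intensity per probe set and array, for 12418 probe sets; no software, background step or scaling is named in the labels or the file. Values below 0 (13 and 18 of them) show that something had been subtracted, and a common scaling cannot be told. Gene names came from an older platform annotation; probe sets with several symbols were left out. The PS cDKO array was shifted by 0.034 on the log2 scale, to centre the ratios of bright probe sets, and values under the 40th percentile were set to that floor. Genes were counted by size, with no test, and lists by counts and medians beside all genes. Precision is set by the number of arrays. Any member could be named; other genes are among the 3 of largest absolute log2 ratio in their list, apart from Psen2. The members, lists and thresholds were chosen with earlier results of these data known. Further lists (endothelial, choroid plexus and meningeal, pituitary and blood markers) had medians of -0.05, 0.04, -0.03 and -0.28 over 6, 7, 7 and 2 genes; the first and second changed sign with no floor (0.02 and -0.03). The NRF1 letters searched were shortened by 1 base after the count for a longer form had been seen; that count was lower. The steps were tested on simulated data. Alternatives were the intensities as deposited, quantile normalization, lowess with a span of 0.3, a lower (20th percentile), a higher (60th) or no floor, the brightest probe set, no suffixed probe sets (names ending in _s_at, _f_at, _g_at, _i_at, _r_at or _x_at), bounds at their limit, and other folds. The tools were pandas 2.3.3 and numpy 2.4.6 on Python 3.11.15, with statsmodels 0.14.6 for lowess, scipy 1.17.1 and matplotlib 3.10.9.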

Additional observations from a re-analysis of the deposited data

How the results depend on the processing

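No replicate could be left out. No paired analysis was possible because there is only 1 array of each genotype. A median was taken to differ where it moved by more than the probe set SD of 0.21 divided by the square root of its number of genes, and a count where it moved by over 1.5 times. This limit is a convention and not an error of the median, because the genes share the same arrays. The medians of complexes I, II and III and of the ATP synthase stayed below 0 under all 9 alternatives, at -0.40 to -0.33, -0.23 to -0.08, -0.47 to -0.35 and -0.29 to -0.22. That of all measured members was -0.34 as deposited, -0.26 after quantile normalization, -0.26 after lowess, -0.25 with the 20th percentile floor, -0.34 with the 60th, -0.24 with no floor and -0.32 with the brightest probe set; complex I was at -0.40 as deposited. Complex IV was at 0.016 after quantile normalization, -0.18 with the 60th percentile floor and 0.047 without suffixed probe sets. The assembly factors were at 0.017 with the 20th percentile floor, -0.14 with the 60th and 0.14 with none. Cox6c was at 0.010 with no floor. The 31 genes lower past the fold limit became 25 after quantile normalization and 23 after lowess, moves within the 1.5 times set above. They became 4 at 1.5-fold, 0 at 2-fold and 54 for any difference. The 4 higher past it became 1, 0 and 14, and 2 as deposited, 2 with the 60th percentile floor and 9 with no floor. The causes were not tested. No scaling shifted the all-gene median by 0.1 or more. The scalings centre it near 0 by construction, so this is no check, and as deposited it was -0.03.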

Other observations

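Another 11 probe sets were paired with several symbols, at least 1 of them of the rule, and so were left out. Of these, 10 were above the floor on both arrays and 9 were lower, with log2 ratios from -0.74 to 0.25 and a median of -0.36.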
